A study of Mus musculus with 2 samples.

Results

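S100 proteins are small calcium-binding proteins that work as dimers, and annexins are proteins that bind phospholipid membranes when calcium rises. Several S100 dimers bridge annexin molecules, so that the families meet at the inner face of the plasma membrane, in vesicle traffic and in the resealing of torn membranes. In the nervous system S100b is best known as a protein of astrocytes and ependymal cells, and Anxa1 and Anxa2 as proteins of reactive, endothelial and invading cells. Described here are 8 genes given by name, S100b, S100a6, S100a10, S100a11, Anxa1, Anxa2, Anxa3 and Anxa5, out of 17189 genes in the deposited table of EpA cells. All 8 were present in that table.

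EpA cells belong to the ependyma, the lining of the central canal in the mouse spinal cord. Both groups were adult C57BL/6J mice of at least 12 weeks with the genotype Troy-CreERT2+/- x Rosa26-tdTomato, in which the Troy promoter drives the recombinase and marked cells carry tdTomato. The uninjured group was the intact cord, and the injured group was the cord 3 days after a dorsal funiculus incision. A segment of 5 mm was taken at the lesion or at the matching level, tdTomato-positive cells were sorted, and 1 single-cell library was made per group. How many animals each library held is not given in the sources used here. With 1 library per group the differences have no replicate check, and the groups were compared without a test. Bracketed ranges are 95% intervals that cover counting error only.

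The authors' EpA set held 555 uninjured and 1004 injured cells with 7689179 and 25296289 unique molecular identifiers (UMIs), at medians of 11387 and 20158.5 UMIs per cell. The median share of mitochondrially encoded transcripts per cell was 11.2% and 6.76%. The 6 ependymal markers summed to 7866 counts per 1000000 UMIs (CPM) in the uninjured EpA cells and 2025 CPM in the injured, with none at 0. Markers of microglia summed to 4.03 and 5.46 CPM over 8 genes, 7 of them under 1 CPM in each library. Those of endothelial cells summed to 26.1 and 16.2 CPM, and those of fibroblasts to 30.6 and 39.4 CPM, most of it Col1a2, while Lum was at 0 in both libraries. Higher in the injured library were the sums for mural cells (28.6 and 129.7 CPM, of which Acta2 was 27.8 and 119.8 CPM), neurons (157 and 641 CPM, of which Stmn2 was 152 and 635 CPM) and oligodendrocyte precursors (1.04 and 45.0 CPM). Those of astrocytes were 668 and 768 CPM. The count of 5 genes called higher, given below, was also 5 in the 554 and 1002 cells without 2 markers of any non-neural class, and in the 399 and 637 cells without 2 markers of any other class. Barcodes of 18 sequences occurred in both libraries, and they included 4 uninjured EpA cells of 809 to 1706 UMIs and 3 injured EpA cells. Leaving these out kept each gene's ratio on its side of the 2-fold mark except that of Anxa2, as given with it.

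Before the values, the stretches upstream of 4 of the genes are shown, because these genes stand for the different courses described below: S100a6 and S100a11 were more than 4-fold higher after injury, Anxa2 lay at 2-fold, and S100b was lower. The sequences are those of the RefSeq promoter table on GRCm38.p6, from 250 bases before the RefSeq start, without any base inside the GENCODE gene. Capitals mark matches to the AP-1 letters TGANTCA. The table held 6 of the 8 genes, and S100a10 and Anxa3 were not matched in it. The stretches lie on the plus strand at chr3:90612644-90612881 for S100a6, chr3:93520246-93520487 for S100a11, chr9:69453433-69453619 for Anxa2 and chr10:76253586-76253835 for S100b.
S100a6: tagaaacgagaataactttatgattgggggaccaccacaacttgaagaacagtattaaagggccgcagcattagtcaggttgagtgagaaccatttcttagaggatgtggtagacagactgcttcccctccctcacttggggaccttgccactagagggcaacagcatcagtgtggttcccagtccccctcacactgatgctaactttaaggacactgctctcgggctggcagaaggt
S100a11: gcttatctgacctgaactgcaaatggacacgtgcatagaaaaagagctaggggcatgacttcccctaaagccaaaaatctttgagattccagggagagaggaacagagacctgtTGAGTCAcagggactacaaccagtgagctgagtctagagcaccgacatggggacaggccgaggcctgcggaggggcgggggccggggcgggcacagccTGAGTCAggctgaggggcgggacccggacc
Anxa2: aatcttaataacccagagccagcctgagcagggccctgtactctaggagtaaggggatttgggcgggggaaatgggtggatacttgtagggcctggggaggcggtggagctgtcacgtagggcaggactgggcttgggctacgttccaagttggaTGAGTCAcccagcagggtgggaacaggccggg
S100b: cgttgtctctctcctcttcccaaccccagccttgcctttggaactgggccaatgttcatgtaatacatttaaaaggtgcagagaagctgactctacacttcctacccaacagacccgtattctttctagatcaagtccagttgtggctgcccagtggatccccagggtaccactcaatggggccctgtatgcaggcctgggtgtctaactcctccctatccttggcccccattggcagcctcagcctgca

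Both strands of the 250 bases were searched for the letters of AP-1 (TGANTCA), TEAD (GGAATG), STAT (TTCNNNGAA), the TATA box (TATAAA) and the GC box (GGGCGG), and for the CArG box. S100a11 held the AP-1 letters at 2 places, 136 to 130 and 38 to 32 bases before the start, and 3 GC boxes. Anxa2 held them once, 95 to 89 bases before the start, with 3 GC boxes and a TATA box 17 to 12 bases before the start. The TATA box and 2 of the GC boxes, 48 to 43 and 24 to 19 bases before the start, lie outside the stretch printed. The windows of S100a6, S100b and Anxa5 held none of the 6 motifs. That of Anxa1 held a TATA box and a TEAD match, and lay wholly inside the GENCODE gene. Among 32851 promoter windows of the same length, the AP-1 letters were in 6.75%, TEAD in 12.6%, STAT in 7.02%, TATAAA in 12.4%, the GC box in 32.7% and the CArG box in 1.47%. A match is a run of letters and no more than that.

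On GRCm38 with GENCODE annotation, 4 of the 8 genes lie on chromosome 3. S100a11 (93520488 to 93526287) and S100a10 (93555080 to 93564643) are neighbours on the plus strand, with 28792 bases between them. S100a6 (90612882 to 90624181) lies 2896306 bases before S100a11, and Anxa5 (36448923 to 36475894, minus strand) is far from both. S100b lies on chromosome 10 at 76253853 to 76261159, Anxa1 on chromosome 19 at 20373428 to 20390944, Anxa2 on chromosome 9 at 69453620 to 69491795 and Anxa3 on chromosome 5 at 96793339 to 96845966. All 8 are protein-coding. S100b overlaps Dip2a, Anxa1, Anxa2, Anxa3 and Anxa5 each overlap a microRNA, predicted or clone-named gene, and S100a11 has a pseudogene of the same name, so that reads shared with these could be split by the counting.

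In EpA cells of the injured cord 3 of the 4 S100 genes stood far above the uninjured level, whereas S100b stood below it. S100a6, or calcyclin, was at 57.4 CPM (52.1 to 63.0) in the uninjured cells, and at 1652 CPM (1637 to 1668) in the injured ones, a ratio of 28.8 (26.2 to 31.7). S100a10, also called p11, the S100 protein that needs no calcium and forms a tetramer with annexin A2, was at 188 CPM (179 to 198) and 1110.3 CPM (1097 to 1123). Its ratio was 5.89 (5.59 to 6.22). S100a11, a partner of annexin A1, was at 153 CPM (144 to 162) and 687 CPM (677 to 697), a ratio of 4.50 (4.24 to 4.77). The order of these levels differed between the libraries: S100a6 was the lowest of the 3 in uninjured and the highest in injured cells. The S100b level of 663 CPM (645 to 681) in uninjured cells compared with 389 CPM (381 to 396) in injured ones, a 1.71-fold lower level (1.65 to 1.76) that is within 2-fold. It passed the mark, at a log2 ratio of -1.05, without cells holding 2 markers of another class, and was -0.19 in cells of 8000 to 20000 UMIs. In that depth window the log2 ratio was 3.61 for S100a6, against 4.85 in all cells, 1.34 for S100a10, against 2.56, and 1.0 for S100a11, against 2.17. Before rounding, the S100a11 value lay just under the 2-fold mark. With cells weighted alike the log2 ratios of these 3 genes were 3.76, 1.91 and 1.74. All these levels are shares of the 3′-end molecules counted, in which a gene's length does not enter.

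The annexins were split in the same manner. Anxa3, an annexin of myeloid and vascular cells, was the rarest of the 8 in uninjured cells, with 12 UMIs or 1.56 CPM (0.806 to 2.73). In injured cells it was at 55.6 CPM (52.7 to 58.6), a ratio of 35.6 (20.3 to 69.1). Its log2 ratio of 5.10 was 2.16 in cells of 8000 to 20000 UMIs and 3.48 with cells weighted alike. Anxa2, which binds actin and, at the cell surface, plasminogen and its activator, was at 355 CPM (342 to 368) and 710.3 CPM (699.9 to 721). That ratio of 2.0 (1.92 to 2.08) sits on the 2-fold mark, and its log2 value was 0.43 in the depth window and 0.59 with cells weighted alike. It was at 1.99 (1.91 to 2.07) when each library's richest cell for the gene was left out, and it also ended under the mark without the barcodes found in both libraries. Anxa5, which coats membranes that expose phosphatidylserine, stood at 845 CPM (825 to 866) without injury and at 617 CPM (608 to 627) with it, 1.37-fold lower (1.33 to 1.41). The levels of S100b and Anxa5 were thus the pair below their uninjured values, both within 2-fold. As UMIs per cell without scaling, where the median log2 ratio of all genes was 0.87, S100b was at 0.09 and Anxa5 at 0.41.

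**Figure D1:**
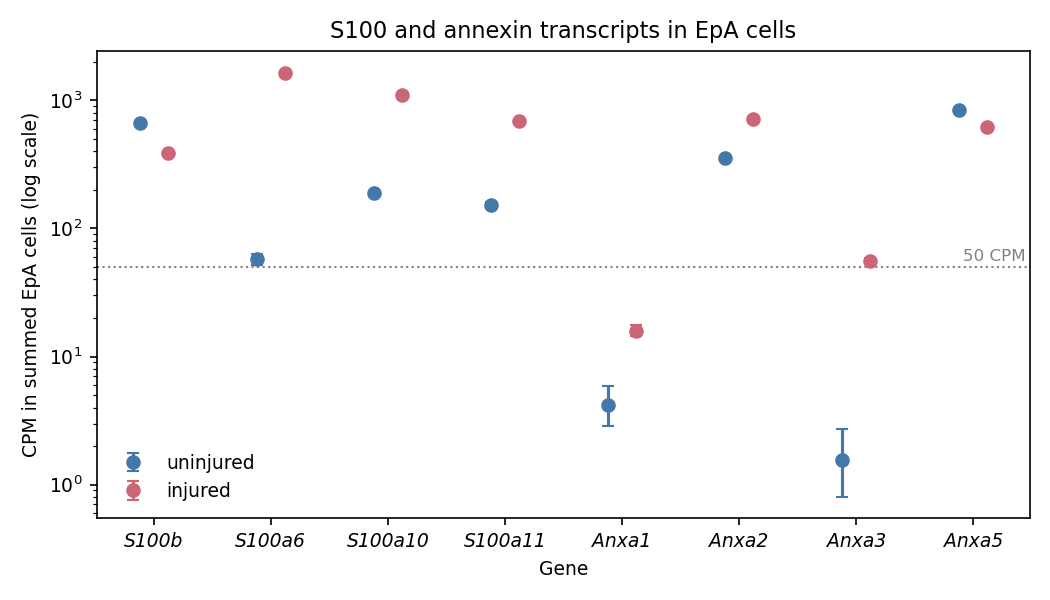
Levels of the 8 genes in the summed EpA cells of each library, in CPM on a log axis, with bars for the 95% counting interval and a dotted line at 50 CPM. S100a6 lies at 57.4 and 1652 CPM and Anxa3 at 1.56 and 55.6 CPM, while S100b and Anxa5 are lower in the injured library.

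Anxa1, the annexin through which glucocorticoids act and whose fragments bind the formyl peptide receptor Fpr2, was sparse in EpA cells of both libraries. Its level was 4.16 CPM (2.85 to 5.88) and 15.9 CPM (14.4 to 17.6), a ratio of 3.83 (2.67 to 5.67), below the floor of 50 CPM that was set for a call. A single uninjured cell of 14874 UMIs held 28 of the 32 uninjured Anxa1 UMIs. This cell also held 129 of 1175 S100a11 UMIs and 5 of 12 Anxa3 UMIs, with 0 UMIs of S100b, Anxa5, Foxj1, Ccdc153, Tmem212, Rarres2 and Mia, and its leading genes were Ly6a, Gsto1, Ltf, Ecm1 and Plet1. Without the richest cell of each library Anxa1 was at 0.521 and 14.5 CPM, a ratio of 27.9 (10.8 to 103), on 4 uninjured UMIs. In cells of 8000 to 20000 UMIs, which keep that single cell, the log2 ratio was -0.40. Leaving out each library's richest cell gave 58.8 (28.5 to 147) for Anxa3 and 5.01 (4.71 to 5.34) for S100a11. Fpr2 had 0 UMIs in both sets of EpA cells.

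A gene was called higher or lower at a 2-fold ratio with at least 50 CPM in either library. By that mark 5 of the 7 genes past the floor were higher (S100a6, S100a10, S100a11, Anxa2, Anxa3), none was lower and 2 were within 2-fold. Across all 3706 genes past the floor, 10.8% were higher and 13.8% lower, with a median log2 ratio of 0.00, against 2.17 over the 7. Among these genes, ordered from the highest ratio, Anxa3 was at place 38, S100a6 at 47, S100a10 at 96 and S100a11 at 116. The count of 5 rests on sums in which deep cells weigh most. With every cell weighted alike, with cells thinned to 2000 UMIs, or without dividing cells it was 3, and in cells of 8000 to 20000 UMIs it was 2.

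**Figure D2:**
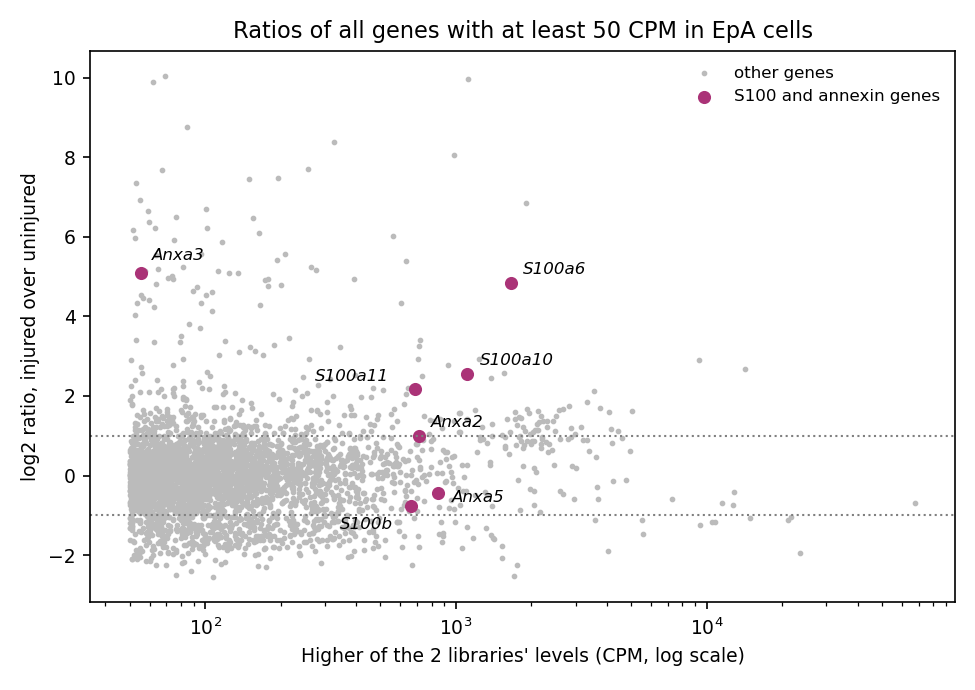
Each point is a gene with at least 50 CPM in either library, placed by its higher level (CPM, log axis) and its log2 ratio of injured over uninjured EpA cells, with dotted lines at 2-fold. S100a6 lies at 4.85 and Anxa3 at 5.10, Anxa2 on the line at 1.0, and S100b and Anxa5 at -0.77 and -0.45.

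Of the other members of both families 5 passed the floor, and 2 were higher and 1 lower, where 10.8% of all genes were higher and 13.8% lower. Of 12 further S100 genes listed, 10 were in the tables and 2 passed the floor. S100a13, which takes part in the release of proteins without a signal peptide, was higher (6.63 and 50.5 CPM; 7.61-fold, 5.75 to 10.3), and S100a1 was within 2-fold at 83.5 and 114 CPM. S100a4, a relative of S100a6 tied to cell motility, stayed just under the floor at 2.73 and 46.3 CPM. S100a8 and S100a9, the neutrophil pair, were at 3.25 and 4.03 CPM without injury and at 0.0791 and 0 CPM in injured cells, the 0 allowing up to 0.146 CPM. The uninjured values rest on 25 and 31 UMIs. In the same library 4 cells outside EpA held 7292 and 6969 UMIs of the pair. Whether the EpA UMIs came from such cells was not tested. Of 8 further annexins, 6 were in the tables and 3 passed the floor. Anxa7 was higher (20.2 and 60.2 CPM; 2.99-fold, 2.53 to 3.55), Anxa11, a partner of S100a6, was lower (248 and 78.5 CPM; 3.15-fold, 2.96 to 3.36), and Anxa6 was within 2-fold at 46.9 and 71.5 CPM.

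The 3 lists of related genes are read against the same shares of all genes, 10.8% higher and 13.8% lower. Of 15 listed partners and targets, 8 passed the floor, 1 was higher, none was lower and the median log2 ratio was 0.35. The 1 was Iqgap1, a scaffold at the cell cortex, at 46.3 and 126 CPM. Ahnak, the large protein bound by the S100a10 and Anxa2 complex, was at 127 and 158 CPM, and Cacybp, named for binding calcyclin, at 398 and 306 CPM. Plat, the tissue plasminogen activator, was at 104 and 137 CPM. Of 18 listed genes of membrane repair, 9 passed the floor and 2 were higher, with a median of 0.38. These were Myof, a ferlin that fuses vesicles to membranes (21.1 and 96.8 CPM), and the calpain subunit Capn2 (29.4 and 73.8 CPM). Of 19 other calcium-binding genes, 10 passed the floor and the median was -0.29. Rcn1, a calcium protein of the endoplasmic reticulum, was higher (21.1 and 82.4 CPM), Calb1, encoding calbindin, was lower (119.9 and 26.7 CPM), and the other 8 were within 2-fold.

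Counted by cell, the same genes separated in how many cells carried them. After thinning to 2000 UMIs per cell, 547 uninjured and 992 injured cells remained and 8 and 12 were left out. S100a6 was seen in 9.51% (7.18 to 12.3) of uninjured and 59.7% (56.5 to 62.7) of injured cells. With 4 or more S100a6 UMIs there were 0.366% and 24.6%. S100a10 was seen in 29.4% and 61.6%, S100a11 in 23.6% and 55.0%, and Anxa2 in 47.5% and 64.3%. Anxa3 reached 0.183% (0.00463 to 1.01) and 5.95% (4.56 to 7.61), and Anxa1 0.366% and 1.92%, so most injured cells had no UMI of either at this depth. S100b went the other way, from 73.3% (69.4 to 77.0) to 56.9% (53.7 to 60), and so did Anxa5, from 81.5% to 69.3%. As a level for free RNA, the 22 uninjured microglia-like cells thinned alike (median 8763.5 UMIs before thinning) gave 0 cells with S100a6, S100b or S100a11, which allows up to 13.6%, and 4.55% for S100a10 and for Anxa2. In the injured library 0 of 31 endothelial-like cells (median 9567 UMIs) had S100b, which allows up to 9.68%. Other sets did have S100b, such as 11.4% (5.34 to 20.5) of 79 injured cells in a cluster led by Fam167b, Igfbp3 and Plvap. Of 11 uninjured fibroblast-like cells 27.3% (6.02 to 61.0) had it. Among injured cells of a cluster led by the B-cell genes Cd79a and Cd74 (median 4478 UMIs), 0 of 21 had S100a6, which allows up to 14.3%. Of 45 uninjured endothelial-like cells (median 9134 UMIs) 2.22% (0.0562 to 11.8) had S100a6, an interval that overlaps the uninjured EpA share. Summed over cells, S100a6 was at 0 CPM (up to 19.1) in the uninjured microglia-like and 13.8 CPM (5.54 to 28.4) in the uninjured endothelial-like cells. Both were below the 57.4 CPM (52.1 to 63.0) of uninjured EpA cells. The 25.6 CPM (9.40 to 55.7) of uninjured astrocyte-like cells has an interval that overlaps it. In the injured library the B-cell cluster summed to 58.0 CPM (23.3 to 119) of S100a6, on 7 UMIs.

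Thinned to 5000 UMIs, S100a6 was seen in 15.8% and 74.4% of cells, S100a10 in 55.5% and 83.4%, S100a11 in 44.9% and 78.2% and Anxa3 in 0.557% and 11.1%. S100b was then in 96.1% and 81.5% of cells. At this depth Anxa2 (83.9% and 89.8%) and Anxa5 (97.4% and 93.3%) were present in most cells of both libraries. Without thinning, the 56 richest of 555 uninjured cells held 66.2% of the S100a6 UMIs, against 25.4% for S100b and 25% for Anxa5. This share rises as counts fall, and S100a6 averaged 0.795 UMIs per cell, S100b 9.18 and Anxa5 11.7. It was 33.7% for S100a10, 41.0% for S100a11 and 100% for the sparser Anxa1 and Anxa3. In injured cells the 100 richest held 50.8% of the S100a6 UMIs and 77.1% of the Anxa3 UMIs.

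Injured EpA cells differed among themselves, and they were divided by their transcripts of 44 cilium genes. The lower end of the uninjured range was set at 1.25% of UMIs, the 5th percentile of the uninjured cells. In that range were 520 uninjured and 414 injured cells, with medians of 11433 and 11650 UMIs. Below it were 578 injured cells with a median of 27867 UMIs, of which 128 were dividing (at least 2 of 10 division genes seen in 2000 UMIs). The groups below are ranges and not types, since 169 injured cells lay within 20% of the limit.

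Injured cells that kept a cilium content in the uninjured range were within 2-fold of the uninjured level for S100b, S100a10, Anxa2 and Anxa5, but not for S100a6. In the range S100a6 was at 54.5 CPM (49.3 to 60.2) without injury and 457 CPM (440.4 to 475) with it, a ratio of 8.39 (7.55 to 9.34). S100a11 was at 136 and 297 CPM, a ratio of 2.19 (2.03 to 2.37), and S100a10 at 182 and 320.3 CPM, a ratio of 1.76 (1.64 to 1.89). These 2 genes, S100a6 and S100a11, were the only ones of the 8 called higher here, and none was called lower, where 0.935% of 3422 genes were higher and 0.146% lower. Anxa2 (355 and 497 CPM) and S100b (669 and 731 CPM) stayed within 2-fold, and Anxa5 was at 854 and 867 CPM. Anxa1 (0.410 and 9.22 CPM) and Anxa3 (0.820 and 6.75 CPM) were far under the floor. With cells of 8000 to 20000 UMIs alone, S100a6 was at 54.2 and 331 CPM, a ratio of 6.11 (5.29 to 7.07), and S100a11 was at 1.83 (1.64 to 2.03), no longer past the mark, where 0.705% of 3402 genes were higher and 0.0882% lower.

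Injured cells below the range carried most of the difference. There S100a6 was at 2030.4 CPM (2010.3 to 2051), 37.2-fold (33.7 to 41.2) above uninjured cells in the range, and S100a10 was at 1361 CPM, 7.49-fold (7.09 to 7.92) above. S100a11 was at 810.4 CPM and 5.97-fold higher, Anxa2 at 778 CPM and 2.19-fold (2.10 to 2.29), and Anxa3 at 71.0 CPM on 0.820 CPM. S100b was at 279.9 CPM (272 to 287), 2.39-fold lower (2.30 to 2.48), and Anxa5 at 539 CPM, 1.59-fold lower. By the size rule 5 of the genes were higher and 1 lower, with 15.2% of 3828 genes higher and 20% lower. Within the injured library, cells below the range stood 4.44-fold (4.27 to 4.62) above those in it for S100a6, 4.25-fold (4.06 to 4.45) for S100a10 and 2.73-fold (2.60 to 2.86) for S100a11. S100b was 2.61-fold (2.51 to 2.72) lower in the same comparison. In cells of 8000 to 20000 UMIs those figures were 3.69, 2.65 and 1.77, with S100b 1.73-fold lower, and Anxa2 was at 475 and 501 CPM, a ratio of 1.06 (0.976 to 1.14). Depth moved with these levels: in the deepest 335 injured cells S100a6 was at 2131 CPM and Anxa3 at 80.1 CPM, in the shallowest 335 at 315 and 3.89 CPM. The part of depth in the result was not tested beyond that window.

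**Figure D3:**
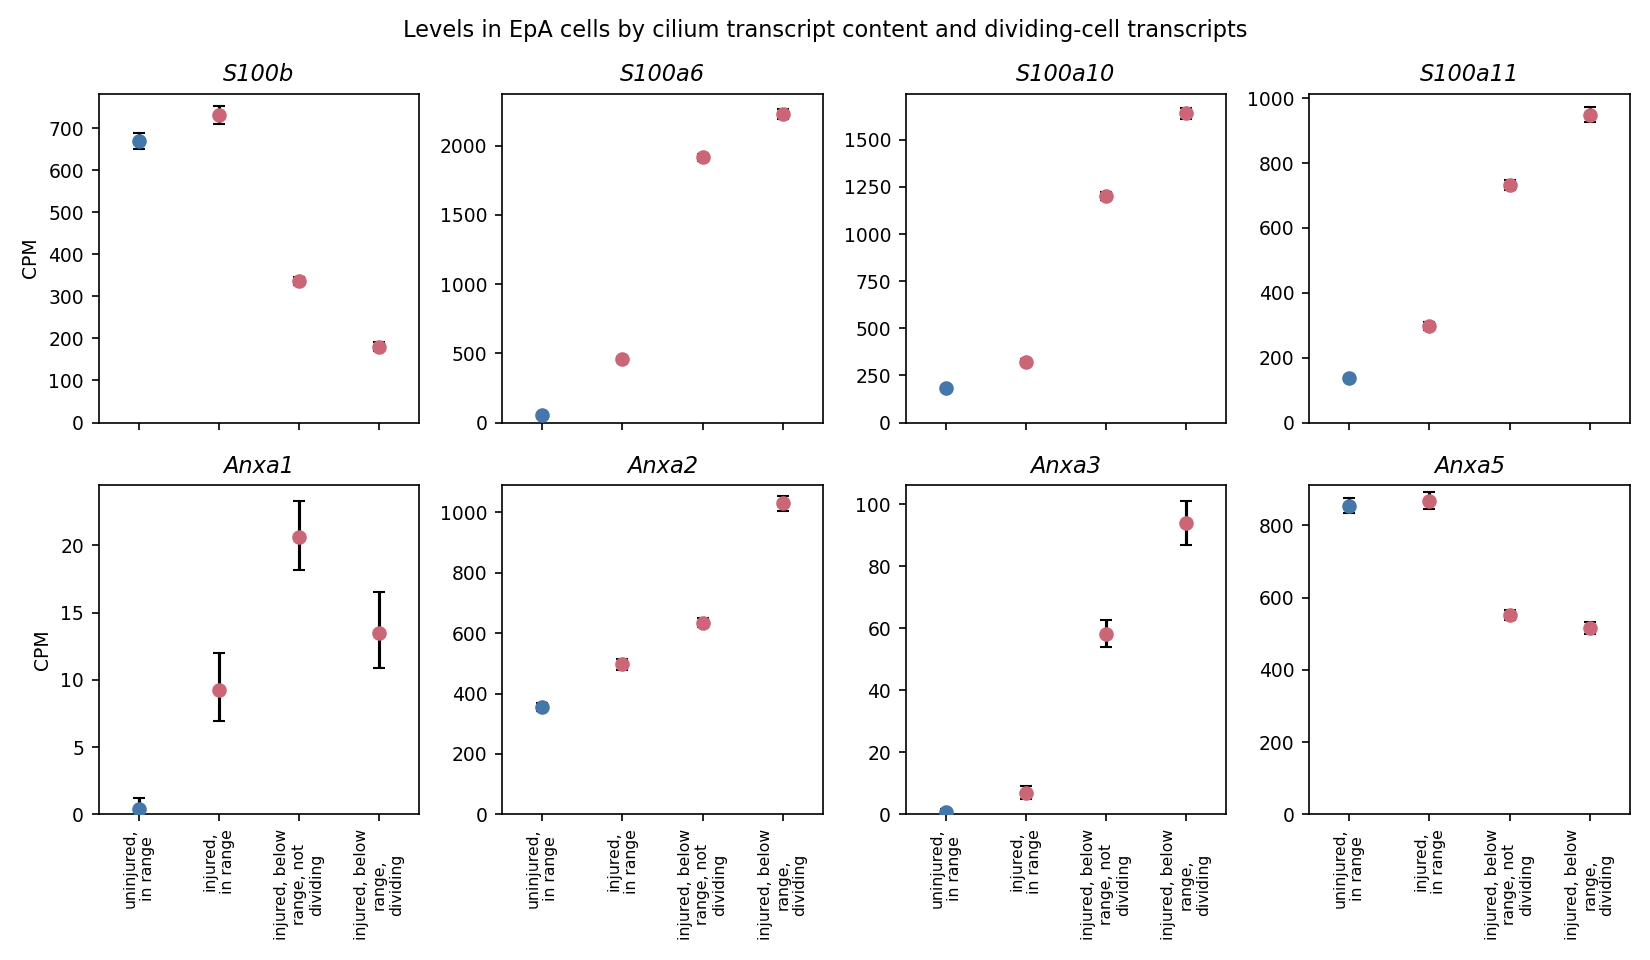
Levels in CPM (linear axes from 0, a scale for each gene) in uninjured cells in the cilium range and in injured cells in the range, below it and not dividing, and below it and dividing, with 95% counting intervals. S100a6, S100a10, S100a11, Anxa2 and Anxa3 climb from left to right, S100b and Anxa5 descend below the range, and Anxa1 is highest in cells that were not dividing.

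Dividing cells and the other cells below the range were within 2-fold of each other for all 8 genes. S100a6 was at 1916 CPM in cells that were not dividing and 2232 CPM in dividing cells, S100a10 at 1201 and 1641 CPM, and S100a11 at 732 and 949 CPM. Anxa2 was at 635 and 1030.1 CPM, a ratio of 1.62 (1.57 to 1.68), and Anxa3 at 58.1 and 93.8 CPM. S100b was at 336 and 180.2 CPM, 1.87-fold lower in dividing cells. Anxa1 was at 20.6 CPM (18.2 to 23.3) and 13.5 CPM (10.9 to 16.5), and Anxa5 at 551 and 516 CPM, so that these also were lower in dividing cells. Among all genes in this comparison 7.74% were higher and 6.39% lower. The dividing cells were the deepest, with a median of 51589.5 UMIs against 23697.5.

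Clusters made without any S100 or annexin gene gave the levels in another grouping. In 2 ependymal-like clusters that held cells of both libraries, S100a6 was at 50.3 and 51.9 CPM in uninjured and at 158 and 142 CPM in injured EpA cells. The ependymal-like cluster led by C3 and Gfap, with 294 injured EpA cells, had S100a6 at 1494 CPM, S100a10 at 801 CPM and S100b still at 533 CPM. The unnamed cluster led by Crym, Cnn1 and Tagln, with 222 injured EpA cells, had S100a6 at 2128 CPM, S100a10 at 1424 CPM, S100b at 283 CPM and, at 29.6 CPM (25.9 to 33.7), the most Anxa1 of these clusters. Anxa3 was at 18.1 CPM in the former and 79.8 CPM in the latter. An unnamed cluster of mixed cells held 118 injured EpA cells of a median of 54070 UMIs, with Anxa2 at 1073 CPM and S100b at 170.2 CPM.

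The known partner pairs were then set side by side. A ratio of the UMIs of 2 genes has no meaning as a ratio of proteins, because capture differs between genes, but it can be compared between cell sets. The textbook pair is S100a10 with Anxa2, 2 molecules of each making the tetramer. EpA cells held 0.531 S100a10 UMIs per Anxa2 UMI (0.498 to 0.566) in the uninjured and 1.56 (1.53 to 1.59) in the injured library. In injured cells within the cilium range it was 0.645 (0.609 to 0.683), above the 0.512 (0.479 to 0.547) of uninjured cells in the range, with intervals that lie apart. In injured cells below the range it was 1.75 (1.71 to 1.78). S100a6 per Anxa2 UMI went from 0.162 (0.146 to 0.179) to 2.33 (2.29 to 2.37), and S100a11 per Anxa2 UMI from 0.431 to 0.967. Anxa2 is thus the member of these pairs that differed least between the libraries.

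Pairs that reach outside the 8 genes moved apart. S100a6 had 0.231 UMIs per Anxa11 UMI in uninjured and 21.0 (20.1 to 22.0) in injured EpA cells, since one was higher and the other lower. S100b had 14.1 UMIs per Anxa6 UMI in uninjured and 5.43 in injured cells. S100a11 and Anxa1, the other textbook pair, stood at 36.7 (25.9 to 53.9) and 43.1 (39.1 to 47.7) S100a11 UMIs per Anxa1 UMI. The uninjured figure leans on the single cell described above, since uninjured cells in the cilium range had only 3 Anxa1 UMIs against 993 of S100a11.

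Cells with both partners of a pair with Anxa2 made up a larger share of the injured library. At 2000 UMIs S100a10 and Anxa2 were seen together in 15% (12.1 to 18.3) of uninjured and 41.2% (38.1 to 44.4) of injured cells, close to the 14% and 39.6% that the product of their separate shares gives. For S100a6 and Anxa2 the shares were 5.12% and 42.2%, with products of 4.52% and 38.4%. S100a11 and Anxa2 were together in 11.3% and 38.6%, and S100a11 and Anxa1 in 0.183% and 1.51%. S100b and Anxa6 were together in 6.4% (4.50 to 8.79) and 7.36% (5.81 to 9.16), intervals that overlap. For each of the 3 pairs with Anxa2 the intervals of the libraries lay apart. They also lay apart for S100a6 with Anxa11, at 2.93% (1.68 to 4.71) and 8.67% (6.99 to 10.6). The same held for S100a11 with Anxa6, at 2.19% (1.14 to 3.80) and 6.96% (5.45 to 8.72), so this was not particular to Anxa2. How many pairs of other genes lay apart was not counted.

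How the 8 genes ran together from cell to cell was described in cells thinned to 10000 UMIs, 381 uninjured and 816 injured. In injured cells S100a6 and S100a10 had a Pearson r of 0.69, S100a10 and S100a11 0.67, and S100a6 and S100a11 0.65. The same pairs had r of 0.23, 0.27 and 0.21 in uninjured cells, where S100a6 UMIs were few. Anxa2 had r of 0.31 with S100a10 in injured cells, lower than with S100a11 at 0.41 and S100a6 at 0.39. S100b ran against the group, with r of -0.43 to S100a10 and -0.37 to S100a11, and with Anxa5 at 0.27. These values are across cells of 1 library that share its cell mixture, and deeper cells had more of the S100a genes, so they describe the library only. The uninjured r of 0.52 between Anxa1 and Anxa3 was -0.01 without the single cell rich in Anxa1.

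**Figure D4:**
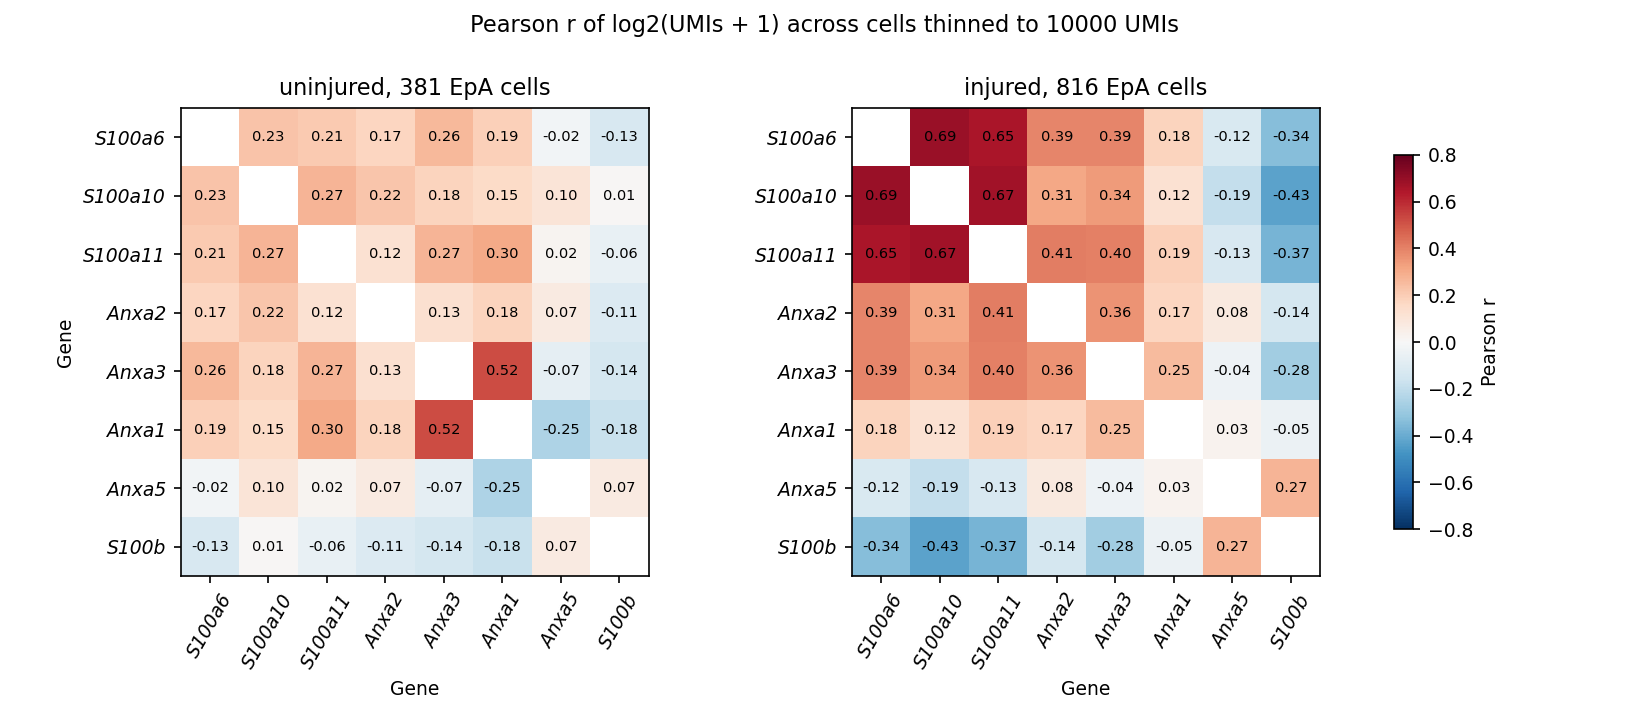
Pearson r of log2(UMIs + 1) between the 8 genes across EpA cells thinned to 10000 UMIs, for 381 uninjured and 816 injured cells, on a colour scale from -0.8 to 0.8. The block of S100a6, S100a10 and S100a11 reaches 0.65 to 0.69 in the injured library only, S100b is negative against it, and the uninjured value of 0.52 for Anxa1 and Anxa3 rests on 1 cell.

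Of 2927 other genes with a mean of at least 0.5 UMIs in the thinned injured cells, the nearest to each gene were named by r. For S100a6 these were Vim (0.70), encoding vimentin, with S100a10 and Tmsb10, both at 0.69. For S100a10 they included Tmsb10 (0.75) and Tmsb4x (0.73), encoding actin-binding thymosins. S100a11 was nearest to S100a10 and S100a6, then Tmsb10 (0.65). S100b was nearest to the metallothionein Mt3 (0.58), Dbi (0.58) and Meig1 (0.57). Anxa2 was nearest to the galectin Lgals3 (0.43), Tagln2 and Tagln (both 0.41), and Anxa3 to Tagln (0.49), Nes (0.45) and Tnfrsf12a (0.43). Anxa5 was nearest to the cilium genes Tmem212 (0.43), Dynlrb2 (0.42) and Rsph1 (0.41). For Anxa1 no gene passed 0.27, the value with Spp1, which is weak in counts this sparse.

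Outside the EpA set the sort kept 156 uninjured and 224 injured cells. Among sets of at least 20 cells outside EpA, the fibroblast-like cells had the highest level in 12 of 16 combinations of gene and library. The exceptions were S100b and Anxa3, each with a higher value in another set in both libraries. For injured Anxa3 the intervals overlap, at 379.6 CPM (339.5 to 423) in a mixed cluster and 364 CPM (329.9 to 401) in fibroblast-like cells. How many of all genes were highest in fibroblast-like cells was not counted. The 30 uninjured fibroblast-like cells had S100a6 at 6554 CPM and the 36 injured ones at 6132 CPM, and Anxa1 at 829 and 866 CPM. Anxa2 was at 1315 and 1554 CPM, Anxa5 at 1458 and 1499 CPM, and S100a11 at 1172 and 1768 CPM, all within 2-fold. Summed over cells, 2 genes were lower in the injured library. S100a10 was at 2625 and 1185 CPM (2.22-fold, 1.99 to 2.46). S100b was at 200.2 and 13 CPM (15.4-fold, 8.18 to 30.3), on 35 and 15 UMIs. Among 3645 genes in these cells 13.1% were higher and 21.5% lower. Of these cells 9 in each library had a barcode also present in the other library. Without them S100a10 was at 2728 and 1018 CPM and S100b at 211 and 14.8 CPM. The uninjured cells had a median of 1131.5 UMIs and the injured ones 18693. Thinned to 2000 UMIs, 11 uninjured and 27 injured cells remained. S100a10 was seen in 54.5% (23.4 to 83.3) and 44.4% (25.5 to 64.7) of them. For S100b the shares were 27.3% (6.02 to 61.0) and 3.70% (0.0937 to 19.0). The intervals of the libraries overlap for both genes, so a difference in the share of cells was not shown here.

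In levels summed over cells, endothelial-like cells, whose cluster was led by haemoglobin genes, shared part of the EpA course. The 46 uninjured cells had S100a6 at 13.8 CPM (5.54 to 28.4, 7 UMIs) and the 34 injured cells at 314 CPM, a ratio of 22.7 (10.8 to 57.5), and S100a11 at 333 and 706 CPM, 2.12-fold (1.76 to 2.57). S100a6 and S100a11 were the 2 genes of the 8 called higher and none was called lower, where 5.25% and 5.28% of 3502 genes were. Thinned to 2000 UMIs, 2.22% (0.0562 to 11.8) of 45 uninjured and 16.1% (5.45 to 33.7) of 31 injured cells had S100a6. For S100a11 the shares were 46.7% (31.7 to 62.1) and 54.8% (36.0 to 72.7). The intervals of the libraries overlap for both genes, so a difference in the share of cells was not shown here. S100a10 (211 and 355 CPM), Anxa2 (303 and 480 CPM), Anxa3 (284 and 361 CPM) and Anxa5 (349 and 305 CPM) were within 2-fold. S100b was at 19.7 CPM in the uninjured cells and at 0 in the injured ones, which allows up to 7.66 CPM. S100a10 per Anxa2 UMI was 0.695 (0.538 to 0.895) and 0.740 (0.604 to 0.906) there, intervals that overlap. An unnamed cluster led by Fam167b, Igfbp3 and Plvap, with 80 injured cells and all 8 endothelial markers over 100 CPM, had S100a6 at 1558 CPM, S100a11 at 1091 CPM and Anxa1 at 234 CPM (219 to 249).

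The remaining sets set single genes apart. The 24 uninjured microglia-like cells had Anxa3 at 502 CPM (407 to 612), the highest level of this gene in any set of at least 20 cells, with no S100a6 or Anxa1 UMI. The 30 uninjured astrocyte-like cells had S100b at 1012 CPM (887 to 1149), above the 663 CPM of uninjured EpA cells, while Anxa3 was at 0, which allows up to 15.7 CPM. In a mixed cluster with 16 uninjured cells outside EpA, clustering at a resolution of 1 set apart 4 cells that held 122 of its 130 uninjured Anxa1 UMIs and all of its S100a8 and S100a9 UMIs, 7292 and 6969. Anxa1 was at 1348 CPM (1119.7 to 1609.9) in those 4 cells and at 165 CPM (71.4 to 326) in the other 12. Whether the Anxa1 and Anxa3 UMIs of EpA cells came from such cells was not tested.

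**Figure D5:**
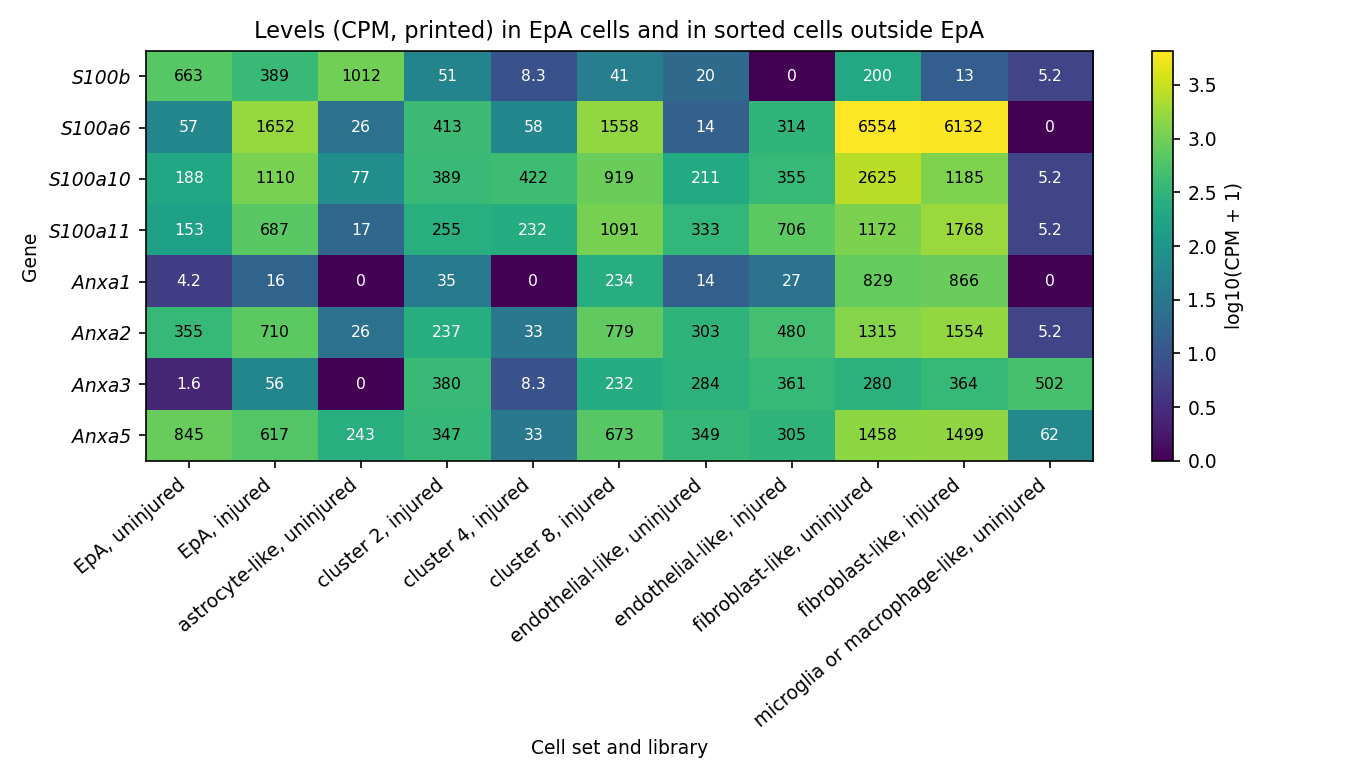
Levels in CPM, printed in each box and coloured on a log10(CPM + 1) scale, of the 8 genes in EpA cells and in clusters of at least 20 cells outside EpA, by library. The fibroblast-like columns are the brightest for every gene but S100b and Anxa3. S100a6 reads 6554 and 6132 there, and Anxa3 reads 502 in the uninjured microglia-like cells.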

How the data were processed

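The deposited values are counts of UMIs per gene and cell from sorted spinal cord cells, 1 uninjured and 1 injured library. The authors did not normalise them: the values are whole and the totals per cell are unequal. The submitters' processing notes name Cell Ranger 3.0.1, Seurat and mm10, and the annotation behind the gene names is not given in the sources used here. Per-library tables held 876 and 1566 barcodes, of which the authors kept 711 and 1228, 555 and 1004 of them as EpA cells. Counts agreed exactly between the tables.

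UMIs were summed per cell set and scaled to CPM. The 95% intervals are exact Poisson ones for levels, conditional binomial ones for ratios and Clopper-Pearson ones for shares, and they cover counting error only. For a 0 in CPM the value allowed is the upper Poisson limit. For a share of 0 it is 3 cells over the cells thinned, which lies somewhat below the Clopper-Pearson limit. Log2 ratios had 0.5 counts added. The kept cells were clustered in scanpy 1.11.5 (Leiden) without S100 and annexin genes, and named from fixed marker lists. No doublet caller was run, and alternatives left out cells with markers of other classes. TMM factors came from edgeR 4.0.16, which was used for scaling and not for a test. Calculations were tested on simulated data.

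The 8 genes, the lists and the alternatives were chosen with earlier results of these data known. Named genes are the 8, listed genes that the size rule calls, and the 3 genes with the highest r to each of the 8, of which 1 is not reported here; others named beside them, such as marker genes, Fpr2, Ahnak, Cacybp, Plat, S100a1, S100a4, S100a8, S100a9 and Anxa6, fall outside that rule and were chosen after their values were seen.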

Additional observations from a re-analysis of the deposited data

Results flagged for a closer look

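In levels summed over cells, S100a10 went one way in EpA cells and the other in fibroblast-like cells outside the EpA set. The log2 ratio of injured over uninjured was 2.56 in EpA cells and -1.15 in fibroblast-like cells, with 1 library per condition, and the difference was not tested. The fibroblast-like value rests on 30 uninjured and 36 injured cells, of which 9 in each library had a barcode also seen in the other library. Thinned to 2000 UMIs, 54.5% (23.4 to 83.3) of 11 uninjured and 44.4% (25.5 to 64.7) of 27 injured fibroblast-like cells had S100a10. These intervals overlap, so a difference in the share of cells was not shown.

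The authors did not keep 165 uninjured and 338 injured barcodes. Genes are given first for which the injured counting interval in these barcodes lay wholly above the uninjured one. The same was not counted over all genes. For S100a6 the uninjured barcodes gave 64.2 CPM and the injured ones 914 CPM, S100a10 at 164 and 619.7 CPM, and S100a11 at 127 and 741 CPM. Anxa1 was at 3.38 and 59.7 CPM, Anxa2 at 265 and 525 CPM, and Anxa3 at 11.8 and 132 CPM. S100b was at 723 and 322 CPM, and Anxa5, whose intervals overlap, at 505 and 545 CPM. The median of these barcodes was 2272 and 2350 UMIs, with mitochondrially encoded transcripts at a median of 0.689% and 0.0933%. The levels are sums in which deep barcodes weigh most. The deepest barcode held 55182 of 591977 UMIs in the uninjured and 263269 of 1357122 UMIs in the injured library. The sums were not repeated without these.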

How the results depend on the processing

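No paired analysis was possible because there was 1 library per condition. Depth limits Anxa1 and Anxa3, with 32 and 12 uninjured UMIs, and differences in depth between the libraries cannot be told apart from the condition. Over 15 alternatives the log2 ratio lay between 3.25 and 5.71 for S100a6, 1.34 and 3.42 for S100a10, 1.0 and 3.03 for S100a11 (2-fold in 14), 0.43 and 1.86 for Anxa2 (2-fold in 7) and 1.44 and 5.96 for Anxa3. S100b lay between -1.05 and 0.09 and Anxa5 between -0.55 and 0.41, positive only as UMIs per cell without scaling, which moved the median of all genes to 0.87. Anxa1 lay between -0.40, in cells of 8000 to 20000 UMIs, and 4.77, without 1 uninjured cell.

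The 5 of the 8 genes called higher became 3 with every cell weighted alike, 3 with cells thinned to 2000 UMIs, 3 without dividing cells and 2 in cells of 8000 to 20000 UMIs. The 0 called lower became 1, S100b, without cells holding 2 markers of another class. Across all genes, 402 higher and 511 lower became 211 and 131 with cells weighted alike, 250 and 180 when thinned, 1570 and 55 as UMIs per cell, 3309 and 2747 with no CPM floor, 767 and 830 with a floor of 20 CPM, and 82 and 26 in cells of 8000 to 20000 UMIs. Without dividing cells 309 were lower. The higher genes were 44.0% of those called, against 61.7%, 58.1%, 96.6%, 54.6% and 75.9% with cells weighted alike, thinned, as UMIs per cell, with no floor and in the depth window. The 2 genes seen in a lower share of injured cells, by intervals that lay apart, became 0 without thinning. How many of all genes met that mark was not counted. The alternatives on shared barcodes, on the single uninjured cell, on non-neural markers and on depth were chosen after seeing the data. The cause of these changes was not tested.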

Other observations

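Other calcium-linked and membrane genes under the 50 CPM floor also stood apart between the libraries in EpA cells. Plaur, the urokinase receptor, had 1 UMI in uninjured cells and 17.2 CPM (15.6 to 18.8) in injured cells, and Cav1, a protein of caveolae, had 2 UMIs and 37.7 CPM (35.4 to 40.2). The counting interval of their ratios reaches from 23.6 for Plaur and from 40 for Cav1. Dysf, encoding dysferlin, a ferlin of membrane repair, had 0 UMIs in uninjured cells, which allows up to 0.480 CPM, and 9.17 CPM (8.03 to 10.4) in injured cells. Ahnak2 was at 0.390 and 10.1 CPM, Hpcal1 at 2.34 and 11.2 CPM and Efhd2 at 14.8 and 39.2 CPM. Lower in injured cells were Otof, another ferlin, at 21.8 and 6.21 CPM, Calb2 at 15.7 and 3.56 CPM, and Ager, a receptor for S100 proteins, at 4.81 and 0.870 CPM. These genes were chosen after their values were seen.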
